A study of Mus musculus with 6 samples.

Results

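The integrated stress response targets described here are 10 genes, Atf4, Ddit3, Trib3, Chac1, Sesn2, Asns, Atf3, Ppp1r15a, Psat1 and Ddit4, out of 55538 features in a table of UMI counts per gene and cell. They were selected on their CPM and their joint detection in these cells, with earlier results of these data known, so their levels and their joint detection in cells are given as a description, without a test. Resident peritoneal cells came from mice labelled C57BL/6 (C57BL/6J in the study's text), 8 to 12 weeks old, that were either MerTK +/+ or MerTK -/-, the latter carrying a line named MerKD that lacks the phagocytic receptor Mertk. The cells were plated for 1 h, rinsed, and given either a media change (control) or co-culture with apoptotic cells (ACs) for 2 h or 6 h, the ACs being UV-treated GFP-Jurkat cells, a human T cell line. Each of the 6 combinations of genotype and condition was 1 library, made from the pooled cells of 3 mice, so no condition has a replicate. Each barcode carries a library number from 1 to 6. No label ties a number to a genotype or time point, and none was inferred, so the genotypes and time points were not compared and values are given by library number.

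In the integrated stress response, kinases that sense amino acid shortage, endoplasmic reticulum (ER) stress, viral RNA or heme deficiency phosphorylate the initiation factor eIF2. General translation then falls, while translation of the Atf4 mRNA rises, and the Atf4 protein induces genes of amino acid supply, redox balance and feedback. Since Atf4 is controlled at translation, its mRNA level is not a measure of its protein. In macrophages the same genes are also known to respond to inflammatory and metabolic signals.

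Promoter sequence was read for the 10 members because Atf4 and its partners are known to bind the C/EBP-ATF response element, whose core was searched as TGATGNAA on both strands from 250 bases before to 50 after each RefSeq start (build GRCm38.p6). The core was found in 4 of 10 members, against 4.51% of the 27025 genes with a promoter in the table and 3.97% of 32851 promoters. The stretches below show these 4 matches and the cAMP response element TGACGTCA of Ppp1r15a, 5′ to 3′ on the strand of each gene, with the match in capitals. A match on the opposite strand appears as the reverse complement of the core.
Atf3, chr1:191183384-191183483, minus strand: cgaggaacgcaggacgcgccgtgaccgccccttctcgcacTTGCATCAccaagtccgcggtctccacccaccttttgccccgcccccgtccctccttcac
Chac1, chr2:119351009-119351108, plus strand: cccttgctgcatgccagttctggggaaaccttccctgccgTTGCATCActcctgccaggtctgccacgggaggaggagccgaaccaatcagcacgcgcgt
Trib3, chr2:152344028-152344057, minus strand: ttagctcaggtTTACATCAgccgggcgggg
Asns, chr6:7693214-7693243, minus strand: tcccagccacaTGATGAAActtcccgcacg
Ppp1r15a, chr7:45526269-45526368, minus strand: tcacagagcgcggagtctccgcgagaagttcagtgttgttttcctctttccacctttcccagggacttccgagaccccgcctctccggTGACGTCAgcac

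The core lay at -110 to -103 from the start in Atf3, at -193 to -186 in Chac1 and at -23 to -16 in Asns, counted from the RefSeq start. In GENCODE M21 the Chac1 match is upstream of the gene, the Asns match lies in exon sequence of a transcript that starts further upstream, and the Atf3 match lies in an intron of a longer transcript. In Trib3 it lay at 15 to 22, just inside the 5′ UTR of the RefSeq model and upstream of the start given by GENCODE M21. The cAMP response element of Ppp1r15a lay at -12 to -5, and this motif was found in 1 of 10 members and in 2.03% of all genes. The ER stress element was found in 0 of 10 members and in 0.137% of all genes. A match describes the letters only, and its use in these cells was not tested.

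The 6 libraries held 7760 barcodes and between 4234786 and 10287079 UMIs each. After filters on genes and mitochondrial share, 7665 cells were kept, of which marker gates placed 2773 among macrophages, 2948 among B cells and 514 among T/NK cells. All 8 macrophage, 6 B cell and 8 T/NK cell markers were seen in their own class, so the cells labelled as peritoneal macrophages also held B and T/NK cells. Median depth was 4426 UMIs per cell in macrophages, 5416 in B cells and 2814 in T/NK cells. The T/NK class also held macrophage transcripts, whose 8 markers summed to 2733 CPM there (UMIs of a gene per 1000000 UMIs), against 402 CPM in B cells and 20538 CPM in macrophages. A further 1277 cells met no gate, 514 of them in library 6, and 153 met more than 1. Between libraries, 28 barcode sequences were shared, which touches 56 of the 7760 barcodes.

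Among the transcription factors, Atf4 (chr15:80255184-80257541, plus strand, GRCm38) was seen in more macrophages than any other member, 1977 of 2773. It read 348 CPM in macrophages (95% Poisson interval 338 to 358), 169 CPM in B cells (163 to 175) and 106 CPM in T/NK cells (91.7 to 122). These intervals, like all those given with levels and ratios here, cover counting error only. By library, Atf4 in macrophages ran from 292 CPM in library 1 to 436 CPM in library 6, with a median of 373 CPM. In B cells it lay between 124 and 199 CPM in libraries 1 to 5 and at 352 CPM in library 6. The macrophage level was the higher of the pair in every library, by a log2 ratio of 0.31 in library 6 and of up to 1.43 elsewhere.

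Atf3 (chr1:191170296-191218039, minus strand), an AP-1 related factor that Atf4 induces and that Toll-like receptor signals induce as well, had the sharpest difference between classes. It read 491 CPM in macrophages (480 to 503) and 31.3 CPM in B cells (28.8 to 33.9), a log2 ratio of 3.97 (3.85 to 4.10) that ranged from 3.64 to 4.59 over the 6 libraries. In macrophages the libraries ran from 397 to 670 CPM with a median of 496 CPM, and in B cells from 19.9 to 49.7 CPM. Macrophages were the higher in every library, as they were for 27% of all features. Under stricter gates, which have a higher minimum and allow no UMI of the other classes' gate genes, Atf3 in B cells was at 15.9 CPM, from 3.88 CPM in library 5 to 36.7 CPM in library 6, and the pooled log2 ratio was 4.96. In T/NK cells Atf3 summed to 83.0 CPM, but only 28 of 514 cells carried it, and its level was 175, 25.1, 90.9, 0, 8.25 and 22.2 CPM in libraries 1 to 6. Macrophage markers in the same T/NK cells summed to 5689, 1591, 2635, 156, 305 and 66.6 CPM. Under the same stricter gates Atf3 in T/NK cells was at 2.86 CPM, from 2 UMIs, while the macrophage markers summed to 28.6 CPM. Of the 4 of 8 markers then at 0, Csf1r, Adgre1 and Fcer1g were set to 0 by the gate itself. Lyz2, which the gate does not use, was at 18.6 CPM, against 1914 CPM before. The stricter gates also changed the make-up of the T/NK class, from 514 to 227 cells. The NK receptor genes Klrb1c and Ncr1 went from 17 and 14 UMIs to 1 and 0, and Nkg7 from 174 to 87. The part of this change in the fall of Atf3 was not tested.

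Ddit3 (chr10:127290774-127296288, plus strand) encodes CHOP, a factor that Atf4 induces and that is known for driving death after prolonged stress. It read 68.9 CPM in macrophages (64.6 to 73.4), 43.5 CPM in B cells (40.5 to 46.6) and 40.7 CPM in T/NK cells (32.0 to 51.1). In macrophages it was 39.6 CPM in library 1, 62.3 CPM in library 2 and between 82.3 and 93.8 CPM in libraries 3 to 6. In library 1 alone B cells were above macrophages, at 44.5 CPM. The table has a second row of this symbol that holds 0 UMIs against 2153 in the row used, and the annotation gives overlapping genes of this name as well as an overlap with the 3′ end of the antisense gene Mars. The Ddit3 level is therefore uncertain to the extent that reads could be split among them.

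**Figure D1:**
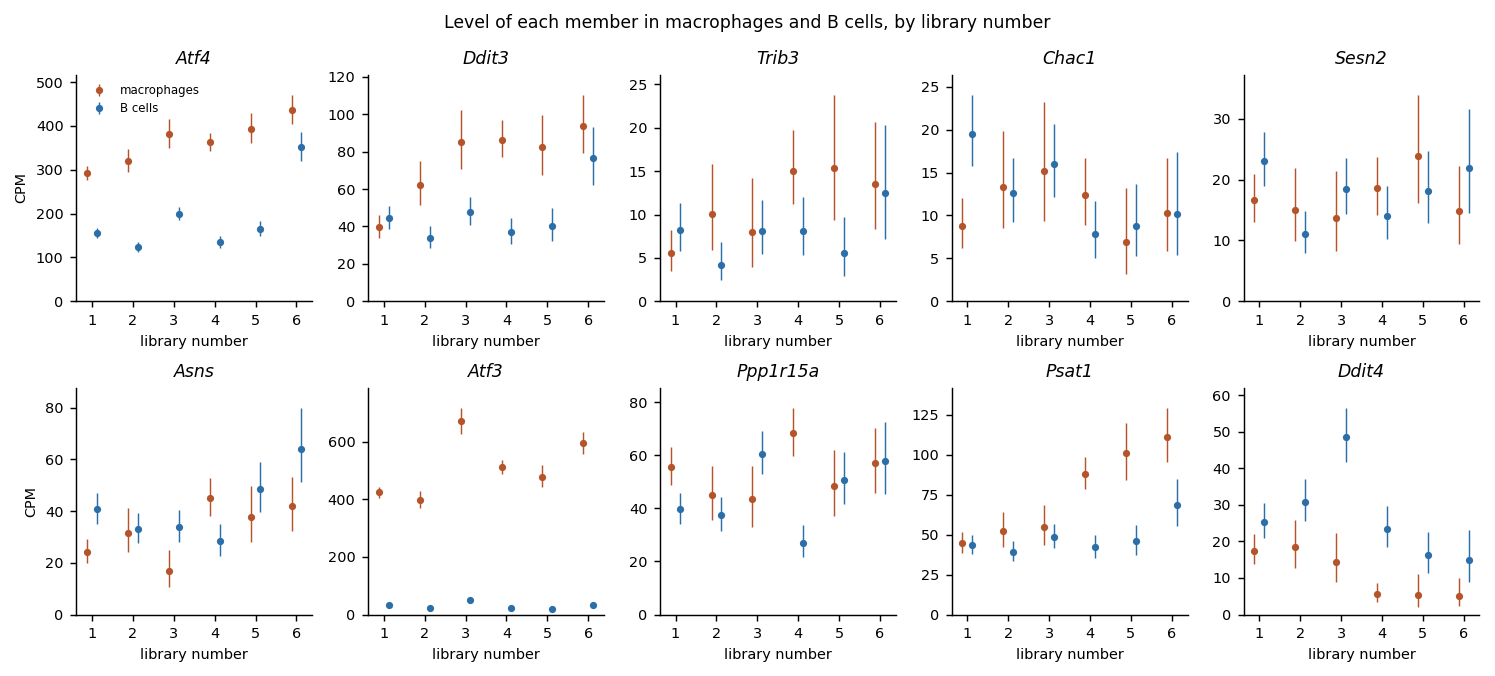
Each panel plots the level of a member in CPM (vertical axis, from 0) against the library number, with macrophages in brown and B cells in blue. Points are values summed over the cells of a library and bars are 95% Poisson intervals. Atf3 of macrophages lies above that of B cells in all 6 libraries, Ddit4 lies below, and Atf4 of B cells is highest in library 6.

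Trib3 (chr2:152337422-152344032, minus strand) and Chac1 (chr2:119351229-119354381, plus strand) are stress-induced genes, the former a pseudokinase that feeds back on Atf4 and Akt, the latter an enzyme that degrades glutathione. Both were rare. Trib3 read 10.5 CPM in macrophages (8.88 to 12.4), from 145 UMIs in 130 of 2773 cells, and 7.36 CPM in B cells (6.17 to 8.70). In macrophages it ran from 5.53 CPM in library 1 to 15.4 CPM in library 5. A spread of 2-fold or more between libraries was also seen in 49.2% of all features. The counting intervals were wide, such as 3.54 to 8.22 CPM in library 1 and 11.1 to 19.7 CPM in library 4. Chac1 read 10.9 CPM in macrophages (9.21 to 12.8) and 13.6 CPM in B cells (12 to 15.4), and macrophages were the higher in 3 of 6 libraries. In T/NK cells each of these genes had 5 UMIs in all, or 2.75 CPM (0.89 to 6.42).

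Sesn2 (chr4:132492032-132510501, minus strand) and Ddit4 (chr10:59949669-59951834, minus strand), the latter also named REDD1, both restrain the growth kinase complex mTORC1, and they did not move together. Sesn2 read 17.1 CPM in macrophages (14.9 to 19.4) and 17.5 CPM in B cells (15.7 to 19.5), with a log2 ratio of -0.04 (-0.29 to 0.21), and its libraries ran from 13.7 to 23.9 CPM in macrophages. Ddit4 read 11.8 CPM in macrophages (10.1 to 13.8), 28.9 CPM in B cells (26.5 to 31.4) and 23.6 CPM in T/NK cells (17.1 to 31.9). In macrophages of libraries 1 to 6 it was 17.5, 18.3, 14.5, 5.59, 5.39 and 5.14 CPM. In B cells of the same libraries it was 25.4, 30.9, 48.5, 23.5, 16.2 and 14.9 CPM. Macrophages were below B cells in all 6 libraries, as they were for 36.1% of all features.

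Asns (chr6:7675169-7693254, minus strand) and Psat1 (chr19:15904678-15947337, minus strand) make asparagine and serine, and are regarded as amino acid supply genes of the response. Psat1 read 70.3 CPM in macrophages (65.9 to 74.8) and 45.4 CPM in B cells (42.4 to 48.6), higher in macrophages in all 6 libraries. In macrophages of libraries 1 to 6 it was 44.9, 52.3, 55, 88.0, 101 and 111 CPM. In B cells it stayed between 39.3 and 48.8 CPM in libraries 1 to 5 and reached 68.9 CPM in library 6. Asns read 32.8 CPM in macrophages (29.8 to 36.0) and 38.3 CPM in B cells (35.5 to 41.2), and was the higher in macrophages only in library 4. It ran from 16.6 CPM in library 3 to 45.0 CPM in library 4 in macrophages, and from 28.4 CPM in library 4 to 64.2 CPM in library 6 in B cells.

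Ppp1r15a (chr7:45522916-45526268, minus strand) encodes GADD34, which brings a phosphatase to eIF2 and so ends the response. It read 55.6 CPM in macrophages (51.7 to 59.7), 43.8 CPM in B cells (40.8 to 46.9) and 34.6 CPM in T/NK cells (26.6 to 44.3). In macrophages the 6 libraries ran from 43.4 to 68.3 CPM with a median of 52.0 CPM, and in B cells from 27.1 to 60.6 CPM with a median of 45.3 CPM, so the classes overlapped.

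B cells of library 6 stood apart from those of the other libraries in several members at once. Besides Atf4, Asns and Psat1, Ddit3 was at 76.7 CPM against 34.0 to 48.0 CPM elsewhere and Trib3 at 12.5 CPM against 4.19 to 8.28 CPM, while Ddit4 was the lowest of the 6 libraries. These 284 cells had a median of 3867 UMIs and 3.73% mitochondrial counts, against 5012 to 6862 UMIs and 2.99 to 3.30% in the other libraries. All 6 B cell markers were seen in them and summed to 4217 CPM, within the 3397 to 4840 CPM of the others. All 8 macrophage markers were seen too, but at 113 CPM they summed to less than the 267 to 632 CPM of the other libraries. The erythroid markers Hbb-bs and Hba-a1 summed to 2032 CPM there, against 1036 CPM in library 3 and 0 in the other 4, and the 5 small macrophage markers, which include Irf4, to 734 CPM against 190 to 427 CPM. Under the stricter gates, 85 cells were left in that library, with Atf4 at 324 CPM against 109 to 177 CPM and Ddit3 at 97.2 CPM against 30.7 to 41.2 CPM. The erythroid markers were then at 0 in that library, and the small macrophage markers at 745 CPM, all of it from Irf4. Irf4 does not mark macrophages among B cells. Over all libraries it was at 240 CPM in B cells and 37.9 CPM in macrophages under these gates. The part of depth, mitochondrial share and Irf4 in these levels was not tested.

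Over all members, 6 of 10 were 2-fold or more apart between the highest and lowest library in macrophages (Ddit3, Trib3, Chac1, Asns, Psat1 and Ddit4), where 49.2% of all 8747 features tested were. In B cells 9 of 10 were, against 46.8% of 9290 features, but without library 6 the count was 5 of 10 (Chac1, Sesn2, Atf3, Ppp1r15a and Ddit4), against 24.4% of features. In macrophages the count was 4 without library 1 (against 45.7% of features) or 3 (37.8%) and 5 without library 5 (43.7%). It was 6 without library 2 (44.8%), 4 (46.1%) or 6 (37.1%). For rare members the counting error alone is wide, as the intervals above show. In T/NK cells 7 of the 9 members tested were, against 88.5% of features, with as few as 18 cells in a library, so the order of libraries in that class is not interpretable.

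Set against B cells at a 2-fold threshold, macrophages were higher in 2 of 10 members, Atf4 (log2 ratio 1.04, 0.98 to 1.11) and Atf3. Of all 9748 features of at least 5 CPM, 18.7% were higher by as much, so the count is near the background. Macrophages were 2-fold lower in 1 of 10 members, Ddit4 (-1.29, -1.55 to -1.03), against 24.7% of all features. The median log2 ratio of the members was 0.43, and that of all features -0.20. Atf4 sat close to the threshold, and its ratio was 0.96 without library 2 and 0.97 without library 4. Atf3, Atf4 and Psat1 were above in each library, 3 of 10 members, against 27% of all features. Ddit4 was below in each library, 1 of 10, against 36.1% of all features.

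Set against T/NK cells, macrophages were 2-fold higher in 7 of 10 members, namely Atf4, Trib3, Chac1, Sesn2, Asns, Atf3 and Psat1, where 19.2% of features were. The median log2 ratio was 1.26 for members and -0.18 for all features. The ratios ran from 1.15 for Sesn2 (0.37 to 2.04) to 2.56 for Atf3 (2.33 to 2.81), and Atf4 stood at 1.71 (1.51 to 1.93). The 3 remaining members were Ddit3 at 0.76 (0.42 to 1.12), Ppp1r15a at 0.68 (0.31 to 1.08) and Ddit4, which was lower and just short of the threshold at -0.999 (-1.49 to -0.48). No member was called lower, against 26.8% of features, and the Ddit4 ratio ran from -1.55 under the stricter gates to -0.80 without library 4. B cells were 2-fold higher than T/NK cells in 4 of 10 members, Trib3, Chac1, Sesn2 and Asns, against 9.4% of features, and lower in 1, Atf3, against 14.8%. Under the stricter gates 7 of 10 were higher, Atf4, Atf3 and Psat1 joining, and 0 lower. The share of all features was not counted under those gates, so this count has no background and cannot be set beside the 9.4%. The 227 T/NK cells then left held, in any library, at most 1 UMI of Trib3, Chac1, Sesn2 or Atf3 and at most 2 of Asns. For Atf3 the log2 ratio of B over T/NK cells was -1.41 (-1.67 to -1.14), -0.82 without library 1, and 2.47 under the stricter gates, where the level in T/NK cells rests on 2 UMIs.

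**Figure D2:**
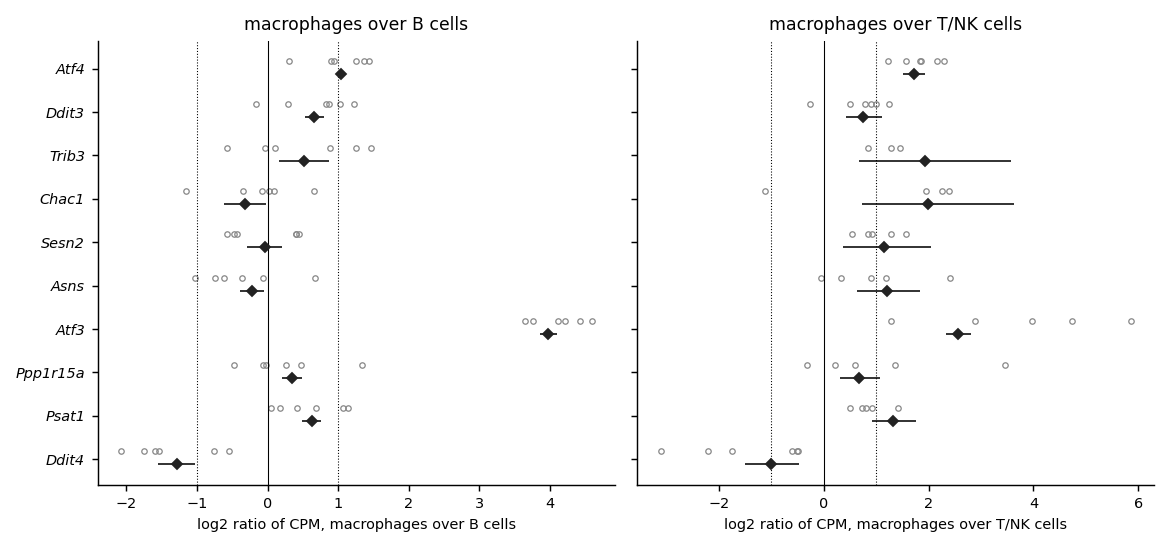
Log2 ratios of CPM for each member (horizontal axis), macrophages over B cells on the left and over T/NK cells on the right. Diamonds are pooled ratios with 95% exact conditional intervals, open circles are single libraries in which both classes had counts, and dotted lines mark 2-fold. Atf3 stands at 3.97 on the left while Ddit4 lies at -1.29, and all pooled ratios on the right but that of Ddit4 are above 0.

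Other genes of the pathway were counted with lists chosen with earlier results known, and the counts against B cells are to be read beside the 18.7% of all features that were 2-fold higher in macrophages and the 24.7% that were lower. Of 24 further Atf4 targets, 16 were expressed enough to test, and macrophages were 2-fold higher than B cells in 10 and lower in 2, with a median log2 ratio of 1.89. The 5 with the highest level in macrophages all belonged to the higher group, which a choice by macrophage level favours, so they are given as examples only. Among them were Slc7a11, the cystine transporter, which is also on the list of amino acid transporters (1398 CPM against 25.1), Sqstm1, an autophagy adaptor (1503 against 242 CPM), and Cebpb, a partner of Atf4 and a myeloid factor (629 against 11.3 CPM). Of 22 genes of the unfolded protein response, the ER arm of stress signalling, 7 were higher and 1 lower, with a median of 0.78. Hspa5, the main ER chaperone, stood at 1636 CPM in macrophages and 619 CPM in B cells. Against T/NK cells, 20 of these 22 genes were higher in macrophages and 0 lower, against 19.2% and 26.8% of all features.

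The serine and one-carbon enzymes went the other way from the member Psat1. Of 8 tested, 0 were 2-fold higher and 6 lower in macrophages than in B cells, with a median log2 ratio of -2.06. Phgdh, which feeds Psat1 its substrate, read 10.9 CPM in macrophages and 108 CPM in B cells, and Shmt2, a mitochondrial enzyme that splits serine, 21.1 against 84.0 CPM. Mthfd2, its partner in the mitochondrial folate cycle, was on the other side at 114 against 75.9 CPM. Of 20 aminoacyl-tRNA synthetases 0 were higher and 4 lower, with a median of -0.48, and the lower share was not above that of all features (24.7%). Among 16 sensor kinases and eIF2 subunits and regulators, 1 was higher and 4 lower, the latter about the share of all features (24.7%). The lower ones were Eif2ak3 and Eif2ak4, the kinases PERK and GCN2, with Eif2b3 and Eif2b4 of the exchange factor, named after their values were seen. PERK mRNA read 16.8 CPM in macrophages and 35.5 CPM in B cells.

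Signals other than stress that are known to reach single members were counted too, again beside 18.7% of all features higher and 24.7% lower. Immediate early genes, a group often raised along with Atf3, were higher in macrophages than B cells in 8 of 13 tested and lower in 0, and genes of the NF-kB and Toll-like receptor response in 10 of 11 and 0. Of 7 hypoxia and glucocorticoid targets, groups that share Ddit4, 4 were higher and 1 lower. The lower was Tsc22d3, a glucocorticoid target, at 6.82 CPM against 54.0 CPM, the same direction as Ddit4. Of 6 p53 targets, a group that shares Sesn2, 2 were higher and 1 lower. Amino acid transporters were split, with 3 of 8 higher and 2 lower.

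How many members a cell showed was read at equal depth, after each cell had been thinned to 1500 UMIs, which left out 83 macrophages, 38 B cells and 16 T/NK cells. At least 1 member was seen in 71.1% of macrophages, 37.7% of B cells and 29.5% of T/NK cells, and at least 2 in 31.3%, 10.2% and 5.42%. Without thinning, at least 1 was seen in 91.9%, 67.8% and 43.6%. In macrophages most of this came from Atf4, seen in 38.4% of thinned cells, and Atf3, seen in 39.6%, while Trib3, Chac1 and Ddit4 were each seen in 1.45 to 1.71%. The mean number per thinned macrophage was lowest in library 2 at 0.945 and highest in library 6 at 1.36. In B cells it was between 0.364 and 0.653 in libraries 1 to 5 and 0.861 in library 6. Library 6 was also the shallowest, with a median of 2861 UMIs per macrophage, and 56 of its 517 macrophages were too shallow to be thinned.

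**Figure D3:**
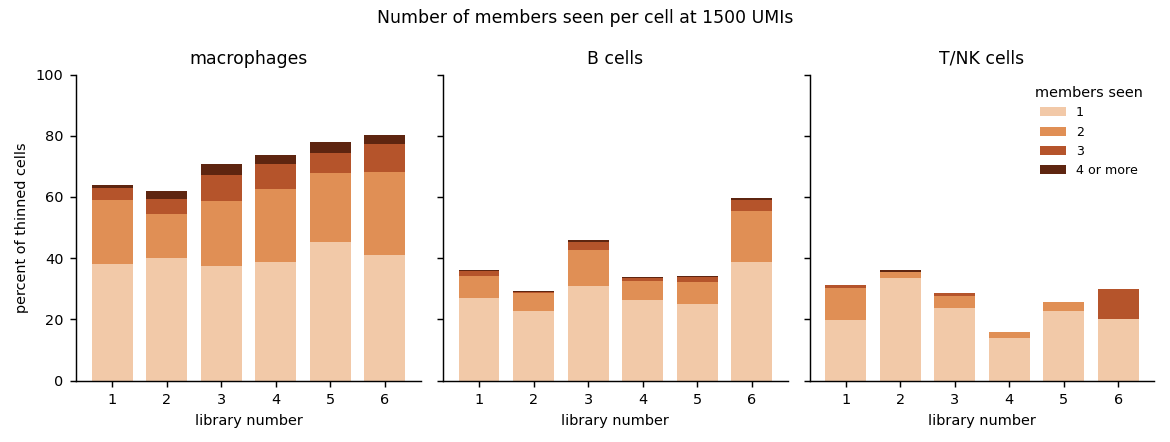
Stacked bars give the percent of thinned cells in which 1, 2, 3 or at least 4 of the 10 members were seen, by library number, for macrophages, B cells and T/NK cells. Macrophages of library 6 show at least 1 member in 80.3% of cells and B cells of library 6 in 59.8%, both the highest of their class.

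Members tended to be seen in the same macrophages. In thinned cells, with library as the stratum, the Mantel-Haenszel odds ratio of joint detection was 2 or more for 19 of 45 pairs and above 1 for 41, with a median of 1.83. For the members paired with every gene seen in at least 2% of cells, 4.11% of pairs reached 2. The members' own pairs with a partner above that minimum, each pair counted from both sides where both passed, reached 2 in 20 of 63. With all UMIs, and with each library cut into 5 bins of depth as strata, an alternative chosen after seeing the data, 14 of 45 pairs reached 2 and 40 were above 1, against 1.48% of pairs with all genes. The rare members pair in few thinned cells, so the binned form, which keeps every UMI, rests on more cells and is used for the values that follow. Cells of a library are not replicates, and the intervals cover counting error only.

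The 5 pairs with the highest values joined Ddit3, Trib3, Chac1 and Sesn2 with each other, and the remaining pair of these 4 genes came after Chac1 with Atf3. All 6 pairs among these 4 genes were at 3.18 or more within depth bins. Chac1 with Sesn2 reached 6.68 (4.27 to 10.5), Trib3 with Sesn2 5.68 (3.69 to 8.73), Trib3 with Chac1 5.0 (2.99 to 8.36), Ddit3 with Chac1 4.62 (3.13 to 6.83), Ddit3 with Trib3 4.14 (2.86 to 6.01) and Ddit3 with Sesn2 3.18 (2.32 to 4.36). In plain shares, Sesn2 was seen in 32.5% of the macrophages with Chac1 and in 5.65% of those without. These 4 genes hold 2 of the 4 core matches printed above, in Trib3 and Chac1. In thinned cells the pair Ddit3 with Trib3 rested on 7 cells and was at 1.82 (0.80 to 4.14), the only one of the 6 below 2.

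By member, partners at 2 or more numbered 7 of 9 for Chac1 (2.81% of all genes), 6 for Sesn2 (2.22%), 4 for Trib3 (2.7%), 3 for Ddit3 (0.532%) and 3 for Atf3 (1.22%). They numbered 2 for Atf4 (0.454%), 1 each for Ppp1r15a (0.188%), Psat1 (0.443%) and Ddit4 (3.35%), and 0 for Asns (0.897%). In thinned cells these numbers were 8 for Chac1 (8.57% of all genes), 6 for Sesn2 (5.79%), 5 for Trib3 (9.47%) and 4 for Ddit3 (1.36%). They were 2 for Atf3 (0.448%), 1 for Atf4 (0.112%), 3 for Ppp1r15a (1.06%), 1 for Psat1 (0.816%), 5 for Ddit4 (10.3%) and 3 for Asns (3.22%). Ddit4 and Asns thus differed most between the forms, and their thinned pairs at 2 or more rested on 2 to 19 cells. The thinned shares cover genes seen in at least 2% of cells, which some members were not. Among partners above that minimum, Chac1 had 6 of 7, Sesn2 3 of 6, Trib3 and Ddit4 3 of 7 each, and Ddit3 2 of 6. Asns, Atf3 and Ppp1r15a had 1 of 6 each, and Atf4 and Psat1 0 of 6. Atf4 was at 2.46 with Chac1 and 2.12 with Sesn2 and between 0.71 and 1.60 with the other 7. Atf3 was at 3.41 with Chac1, 2.61 with Trib3 and 2.12 with Sesn2, but at 0.87 (0.70 to 1.07) with Ppp1r15a. Asns reached 2 with 0 of 9 members and had its highest value, 1.95, with Trib3, although in thinned cells that pair was at 5.53 (2.56 to 11.9) on 9 cells. Within depth bins Psat1 reached 2 only with Sesn2, at 2.28 (1.67 to 3.1), and in thinned cells only with Trib3, at 2.10. Ddit4 was below 1 with Atf4, Asns, Atf3 and Psat1, and its value with Atf3 was 0.55 (0.35 to 0.85). In thinned cells, where these pairs rested on 2 to 16 cells, Ddit4 was below 1 only with Atf4, at 0.53, and was at 1.71 with Asns, 1.21 with Atf3 and 1.55 with Psat1. Ddit4 with Chac1 was at 2.32 (1.19 to 4.51), from 12 cells.

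**Figure D4:**
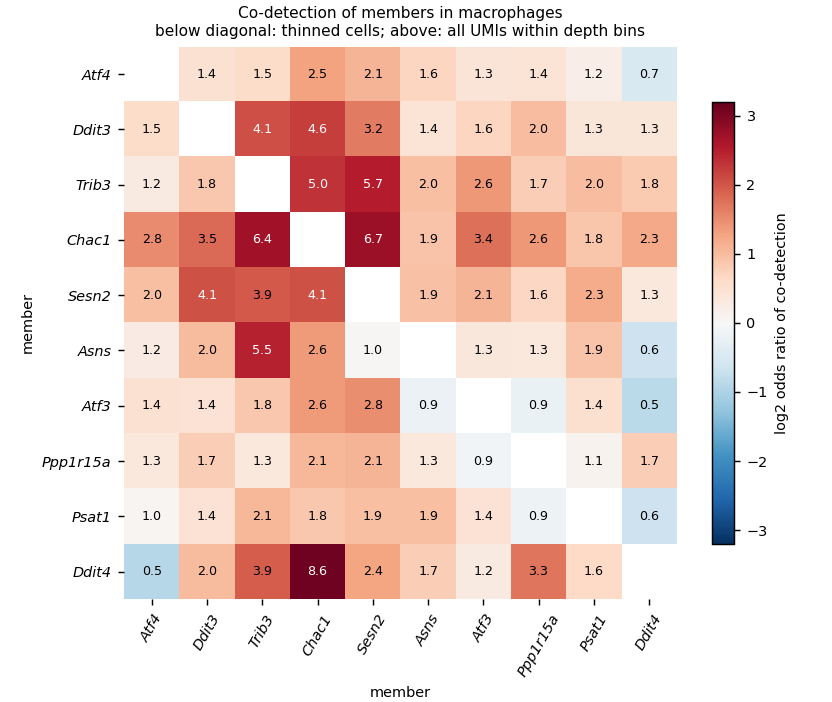
Odds ratios of joint detection for the 45 pairs of members in macrophages, written in each cell and coloured on a log2 scale. Values below the diagonal are from cells thinned to 1500 UMIs within library, and those above from all UMIs within library and depth bin. Pairs among Ddit3, Trib3, Chac1 and Sesn2 run from 3.18 to 6.68 above the diagonal, and those of Ddit4 with Atf4, Asns, Atf3 and Psat1 are below 1 there, while below the diagonal only that with Atf4 is.

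Odds ratios were then ranked among genes seen in 2 to 50% of macrophages and, together with the member, in at least 5 cells. The upper limit was set after seeing the data. Highest with Ddit3 within depth bins were Chac1, Trib3 and Sesn2 themselves, then Herpud1 at 3.15 and Glrp1 at 3.06, of 8326 genes. For Trib3 the highest were Herpud1 at 5.71, Sesn2, Chac1 and Ddit3, then Jdp2 at 3.90, of 7003 genes. Herpud1, a gene of ER-associated degradation, was seen in 102 of the 130 macrophages with Trib3 and in 37.8% of all macrophages. For Atf4 the 5 were Areg at 3.51, Dusp8, Ptp4a1.1, Rnd2 and Krt10 at 2.90, none of them a member. In thinned cells the lists were P2ry2, Sesn2, Gm20559, Gdf15 and Slc7a5 for Ddit3 and Aqp9, Gm44745, Smc3, Rhbdd1 and Vcl for Atf4.

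The other lists were read the same way for each member, and some of the results are given here. With Trib3, 9 of 21 genes of the unfolded protein response and 8 of 20 aminoacyl-tRNA synthetases reached an odds ratio of 2, as did 2.7% of all genes. With Chac1, 5 of 8 amino acid transporters and 7 of 16 other Atf4 targets did, against 2.81% of all genes. With Ddit3, 2 of 21 genes of the unfolded protein response did, Hspa5 and Herpud1, against 0.532%. With Atf3, 1 of 13 immediate early genes did, Egr2, against 1.22%. Of 7 serine and one-carbon enzymes, 2 did with each of Asns (0.897% of all genes), Trib3 (2.7%) and Sesn2 (2.22%). With Ddit3 and Chac1 1 did, and with Psat1, Ddit4, Atf4, Atf3 and Ppp1r15a 0 did. For Psat1 and Ddit4 the shares of all genes were 0.443% and 3.35%, so 0 of 7 carries little information. The median odds ratio of Psat1 with these enzymes was 1.67, and with all genes 1.06.

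In B cells 22 of 45 pairs were at 2 or more within depth bins, against 3.21% of pairs with all genes. Whether the classes differ in this was not tested. The highest were Trib3 with Chac1 at 6.90 (4.38 to 10.9), Chac1 with Sesn2 at 6.65 (4.53 to 9.75) and Atf4 with Chac1 at 6.51 (3.44 to 12.3). Ddit3 with Sesn2 was at 1.52 (1.14 to 2.04). Ddit4 was between 0.78 and 0.89 with Asns, Ppp1r15a, Atf4 and Psat1 and at 1.06 with Atf3, where in macrophages its value with Ppp1r15a was 1.72 (1.11 to 2.68). In thinned B cells 17 of 45 pairs reached 2, against 8.37% of pairs with all genes (22 of 72 for the members' pairs above the 2% minimum). The 3 pairs of Trib3 with Chac1, Sesn2 and Ddit4 were never seen together there. In T/NK cells 28 of 45 pairs were never seen together after thinning. Within depth bins 34 of 45 pairs were at 2 or more there, but so were 30.4% of pairs with all genes, so no pattern was read from that class.

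Large and small peritoneal macrophages, the resident and the monocyte-derived type, were compared with gates on Gata6, Timd4, Selp, Icam2 and Alox15 against Ccr2, Irf4, Fcrls, Ear2 and Lyz1. Between 359 cells of the large gate and 1067 of the small gate, 1 of 10 members differed 2-fold, Atf3, at 300 CPM in the large and 647 CPM in the small gate (log2 ratio 1.11, 0.98 to 1.24, above in 5 of 6 libraries). Of all 8718 features 6.46% were higher and 2.87% lower by as much. Lyz1, however, made up most of the small gate's counts, at 2917 CPM, and was also at 1012 CPM in the macrophages of neither gate. Without Lyz1, a gate chosen after seeing the data, 1161 cells were large and 239 small. Atf3 was then at 359 and 665 CPM, a log2 ratio of 0.89 (0.77 to 1.01) that was above 0 in 6 of 6 libraries.

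The log2 ratios of Ddit3, Trib3, Chac1 and Asns changed sign with that gate, but no member had intervals on opposite sides of 0. With Lyz1 the intervals of Ddit3 (-0.11 to 0.52), Trib3 (-0.25 to 1.45) and Chac1 (-0.28 to 1.48) included 0. Ddit3 was at 60.4 CPM in the large and 69.3 CPM in the small gate with Lyz1, and at 63.6 and 29.3 CPM without it, a log2 ratio of -1.12 (-1.67 to -0.61). Asns had a log2 ratio of 0.56 (0.08 to 1.06, above in 6 of 6 libraries) with Lyz1 and of -0.04 (-0.62 to 0.49) without it. Trib3 (-1.29), Chac1 (-1.17) and Sesn2 (-1.10) were also 2-fold lower in the small gate without Lyz1, on 4, 5 and 9 UMIs in the small gate, making 4 of 10 members lower against 10.7% of features and 0 higher against 13.3%. Of these 4, the interval stayed below 0 for Ddit3 and Sesn2 only, and the small gate was above the large in 2 of 6 libraries for Ddit3 and in 1 for Sesn2. Atf4 was at 321 and 377 CPM with Lyz1 and at 314 and 330 CPM without it, log2 ratios of 0.23 (0.10 to 0.37) and 0.07 (-0.09 to 0.23). The limit on large markers was the same for both small gates, yet these markers were lower in the small gate without Lyz1. There Gata6 was at 2.66 CPM against 14.3 CPM with Lyz1, Timd4 at 2.66 against 7.65 and Selp at 0.89 against 13.4. Icam2 was at 4.44 against 13.7 CPM and Alox15 at 4.44 against 19.0 CPM. Which gate separates the macrophage types better was not tested.

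**Figure D5:**
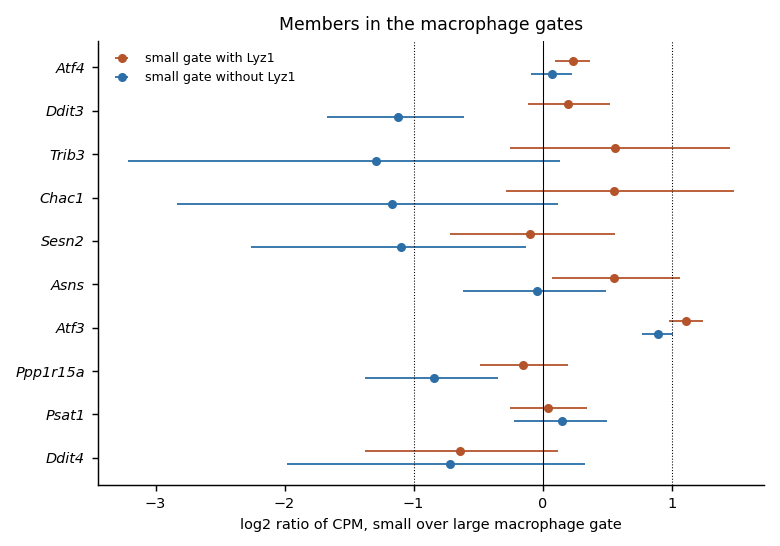
Log2 ratio of CPM, small over large macrophage gate (horizontal axis), for each member, with 95% exact conditional intervals. Brown points use the gate with Lyz1 and blue points the gate without it. Atf3 is near 1 in both (1.11 and 0.89), while Ddit3, Trib3, Chac1 and Sesn2 lie below -1 only in blue.

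Last, the 18 sums of 3 classes and 6 libraries were searched for genes whose log2(CPM+1) followed the mean standardised level of the members. The 10 closest of 5613 genes of at least 20 CPM were Myo5a (Pearson r 0.95), Myo1c, Hspa5, Mthfd2, Sdf2l1, Xbp1, Rtn3, Gmppb, Hyou1 and Pdia6 (r 0.93). Hspa5, Sdf2l1, Xbp1, Hyou1 and Pdia6 are on the list of the unfolded protein response and Mthfd2 on that of one-carbon enzymes. The sums share libraries and classes, so these coefficients are a description. Of the members with at least 20 CPM, Atf4 had r 0.83 with the same mean and Ddit3 0.51, while Ddit4 alone was negative at -0.43. Each member is itself part of that mean, which raises its r, so these values do not compare with those of the other genes.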

How the data were processed

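Libraries were made with the 10x Genomics 5′ kit, and the authors aligned reads to hg38 and mm10 with STAR through Cell Ranger and kept mouse genes. The study's methods and the submitters' processing notes name different Cell Ranger versions (the notes give 2.2). The deposited values are raw UMI counts per gene and cell, not normalized, for all libraries in 1 table. A cell was kept if it showed 500 genes or more, had log(genes)/log(UMIs) no lower than 0.8, and had a mitochondrial share no higher than 10%. Classes were gated on UMIs: B cells Cd79a+Cd79b at least 4, T/NK cells Cd3d+Cd3e+Nkg7 at least 2, macrophages Csf1r+Adgre1+Fcer1g at least 2 with at most 2 B cell and 1 T/NK cell UMIs. Cells in several classes were left out, and no doublet caller or correction for free RNA was run. UMIs were summed per class and library to CPM, with exact intervals (Python 3.11.15, scipy 1.17.1), and no p-value is given because each condition has 1 library. Calls need a 2-fold ratio, and the background is all features of at least 5 CPM. Ratios and odds ratios were tested on simulated data. All 10 members are named, besides listed genes with the highest level, the 10 genes most like the members, leading co-detection partners of Ddit3, Trib3 and Atf4, and gate markers. The partners of Trib3 in thinned cells are not reported here. Members and lists were chosen with earlier results of these data known. Positions are from GENCODE M21 and promoters from RefSeq (GRCm38.p6).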

Additional observations from a re-analysis of the deposited data

Results flagged for a closer look

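The 1277 cells that met no class gate enter no comparison of the report, yet all 10 members exceeded the floor that 0 UMIs would allow there (3 UMIs, or 0.699 CPM). Atf4 read 294 CPM, Ddit3 62.4 CPM, Trib3 14.7 CPM, Chac1 15.4 CPM, Sesn2 19.6 CPM and Asns 53.8 CPM. Atf3 read 105 CPM, Ppp1r15a 48.2 CPM, Psat1 82.7 CPM and Ddit4 26.1 CPM. Asns, Psat1, Trib3, Chac1 and Sesn2 read higher there than in any of the 3 classes. Only for Asns (47.1 to 61.2 CPM) did the interval lie clear of that of the highest class. The intervals of Psat1 (74.3 to 91.7), Trib3 (11.3 to 18.8), Chac1 (11.9 to 19.6) and Sesn2 (15.6 to 24.2) overlapped it. The same cells held Irf4 at 402 CPM, Cd79a at 302 CPM and Lyz2 at 1723 CPM, and 514 of them were from library 6. Their cell type was not assigned.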

How the results depend on the processing

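No paired analysis was possible because no result comes from a test and no barcode carries a genotype or time; class ratios are given within each of the 6 libraries instead. Between macrophages and T/NK cells, 1 member (Ddit4) was called lower under the stricter gates, the mean of each cell's own CPM, the denominator without mitochondrial and immunoglobulin genes, thinning and the median of libraries, and 0 or 1 when a library was left out. Between B and T/NK cells, 7 members were called higher under the stricter gates, on few T/NK cell UMIs and without a count of all features. The number called lower was 0 under the stricter gates, the mean per cell, thinning and the median of libraries. It was 0 to 1 with a library left out. The Atf3 log2 ratio of B over T/NK cells turned from -1.41 to 2.47 under the stricter gates and to 0.24 with the median of libraries, and was -0.82 without library 1. With a library left out, 1 or 2 members were 2-fold higher in macrophages than B cells. Members 2-fold apart between libraries numbered 5 to 9 in B cells and 4 to 6 in macrophages with a library left out, an alternative chosen after seeing the data. The share of all features was then 24.4 to 44.5% in B cells and 37.1 to 46.1% in macrophages. In the macrophage gates, 0 members were higher and 4 lower without Lyz1 in the gate, and 0 or 1 higher (0 without library 1 or 2) and 0 or 1 lower with a library left out. The genes most like the members kept 5 of 10 with 10 CPM added in place of 1. In macrophages, pairs of members at an odds ratio of 2 or more numbered 14 to 21 over all alternatives. Counting error limits Trib3 and Chac1 most.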
